A study of Mus musculus with 20 samples.

Results

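A set of 10 genes that carry fatty acids into the adipocyte and build them into triglyceride was followed in the epididymal fat pad of C57BL6/J males: Lpl, Cd36, Fabp4, Pck1, Gpam, Gpat3, Agpat2, Lpin1, Dgat1 and Dgat2. They were chosen by name from the pathway, with earlier results of these data known, and were 10 of the 39179 gene IDs counted. High-fat feeding replaced chow for 2, 4, 6 or 14 days, and the day 0 animals stayed on normal chow. Chow libraries came from day 0 only, so diet and time on study cannot be told apart. Each of the 5 groups held 4 libraries of whole-tissue RNA, 20 libraries in all. The labels name no transgene or gene deletion, and do not give the age of the mice, the makeup of the diet or whether a library pooled animals. The labels call the libraries biological replicates, and the p-values measure the spread between them.

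As background, lipoprotein lipase releases fatty acids from circulating lipoproteins at the capillary wall, CD36 helps them across the plasma membrane, and FABP4 binds them in the adipocyte cytosol. Triglyceride is then built on glycerol 3-phosphate in steps: a first acylation (GPAM in mitochondria, GPAT3 in the endoplasmic reticulum), another acylation (AGPAT2), removal of the phosphate (LPIN1) and a last acylation (DGAT1 or DGAT2). PCK1, a cytosolic enzyme of glyceroneogenesis, helps to make the glycerol 3-phosphate when glucose supplies little of it. White fat stores most of the body's triglyceride, and loss of AGPAT2 causes lipodystrophy in humans and mice.

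On day 4 of high-fat feeding, 3 of the 10 genes rose (Agpat2 2.69-fold, Dgat2 2.01-fold and Lpl 1.51-fold) and 1 fell, Pck1, to 0.252-fold of the chow level, on a day when 35.3% of all genes passed the test at an adjusted p under 0.05 (18% higher and 17.3% lower). On day 2 only Agpat2 of the 10 passed, at 2.92-fold, beside 4.39% of all genes. On days 6 and 14 none of the 10 passed, beside 3.45% and 1.18% of all genes. In a test of any difference among the 5 groups, Pck1 (edgeR quasi-likelihood F test with Benjamini-Hochberg adjustment over all genes, adjusted p = 0.0120) and Agpat2 (adjusted p = 0.0215) passed, as did 19.6% of all 15254 genes tested. Agpat2 lost this call without chow replicate 2 (adjusted p = 0.0517) or 4 (0.0565), without day 4 replicate 4 (0.0543), and without the pair of libraries for which doubts are given with the depths (0.100). Pck1 lost it without day 4 replicate 4 (0.0503).

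Because the results turn on Pck1 and Agpat2, the 250 bases upstream of their annotated starts are shown, both on chromosome 2. The sequences are RefSeq promoter windows on GRCm38.p6, written 5′ to 3′ on the gene's strand, and the capitals mark TTACGTCA, an element that Pck1 is known for and through which cyclic AMP acts. The Pck1 window is chr2:173152823-173153072 (plus strand) and the Agpat2 window is chr2:26604418-26604667 (minus strand).
Pck1: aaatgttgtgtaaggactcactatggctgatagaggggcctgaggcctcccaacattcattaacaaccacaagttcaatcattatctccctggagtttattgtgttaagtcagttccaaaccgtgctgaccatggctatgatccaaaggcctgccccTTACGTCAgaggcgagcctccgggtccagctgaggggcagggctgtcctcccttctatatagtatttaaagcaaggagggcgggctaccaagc
Agpat2: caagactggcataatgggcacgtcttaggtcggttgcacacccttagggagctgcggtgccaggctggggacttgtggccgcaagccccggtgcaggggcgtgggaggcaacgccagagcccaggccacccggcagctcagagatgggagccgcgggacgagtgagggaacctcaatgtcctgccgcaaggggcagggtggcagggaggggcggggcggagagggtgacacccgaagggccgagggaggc
In Pck1 the element lies at -93 to -86 from the start, on the gene's strand, and 0.499% of the 32851 RefSeq promoter windows hold it on either strand. Its letters, and those of its core ACGTCA (7.51% of windows), were added after the windows had been read. The other letters searched on both strands, over 250 bases before and 50 after each start, were the nuclear receptor letters AGGTCA (16.3% of windows), its direct repeat spaced by 1 base (0.0396%), the C/EBP site TTGCNNAA (10.8%), a sterol element (0.234%) and the E-box CACGTG (7.15%). Windows were found for 6 of the 10 genes (Pck1, Agpat2, Cd36, Gpat3, Lpin1 and Gpam, which has 2). AGGTCA occurred at Cd36, Lpin1 and the internal Gpam start, ACGTCA at Gpat3 and the internal Gpam start, and TTGCNNAA at the upstream Gpam start, while the Agpat2 window held none of the letters searched. A match is a description of the letters only.

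Total counts ran from 1916829 (day 2 replicate 1) to 38832429 per library, and the lowest count of any of the 10 genes in any library was 538. Doubt fell on 2 libraries: day 2 replicate 1 for its small total, and chow replicate 4, where 5 genes of epididymal or ductal epithelium summed to 80.17 CPM (counts scaled to TMM-adjusted library totals) against at most 5.378 CPM in any other library. Of that sum Cuzd1 alone held 80.11 CPM, Lcn5 and Defb48 were at 0 in every chow library, and Lcn8 and Crisp1 reached at most 0.116 and 0.0312 CPM in any. The adipocyte markers Adipoq, Plin1, Lipe, Cfd, Adrb3 and Pparg were all counted in every library. In bulk tissue, fewer cells of a type and less RNA per cell cannot be told apart.

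The 10 genes together took 2.43% to 3.48% of the counts in chow libraries, then 3.71% to 4.24% (day 2), 3.29% to 4.51% (day 4), 3.54% to 4.47% (day 6) and 2.79% to 4.29% (day 14). Per kilobase of the principal transcript, Fabp4 was the highest in every group, with a mean of 10020 CPM per kb in chow libraries. Lpl followed at 2666, then Cd36 at 1238, Dgat2 at 1034 and Pck1 at 971 CPM per kb in chow. Agpat2 had 392, Dgat1 150, Lpin1 111, Gpat3 49.5 and Gpam 47.3 CPM per kb. On day 4 Dgat2 (2075 ± 211 CPM per kb) stood above Cd36 (1257 ± 191), and Agpat2 (1052 ± 186) above Pck1 (244 ± 88.8, SD, n = 4 each). The means had that order on days 2 and 6 too, and on day 14 Dgat2 was above Cd36 and Pck1 above Agpat2. In chow, Dgat2, Pck1 and Cd36 did not differ beyond their SDs, and neither did Gpat3 and Gpam in chow or on days 4, 6 and 14.

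**Figure D1:**
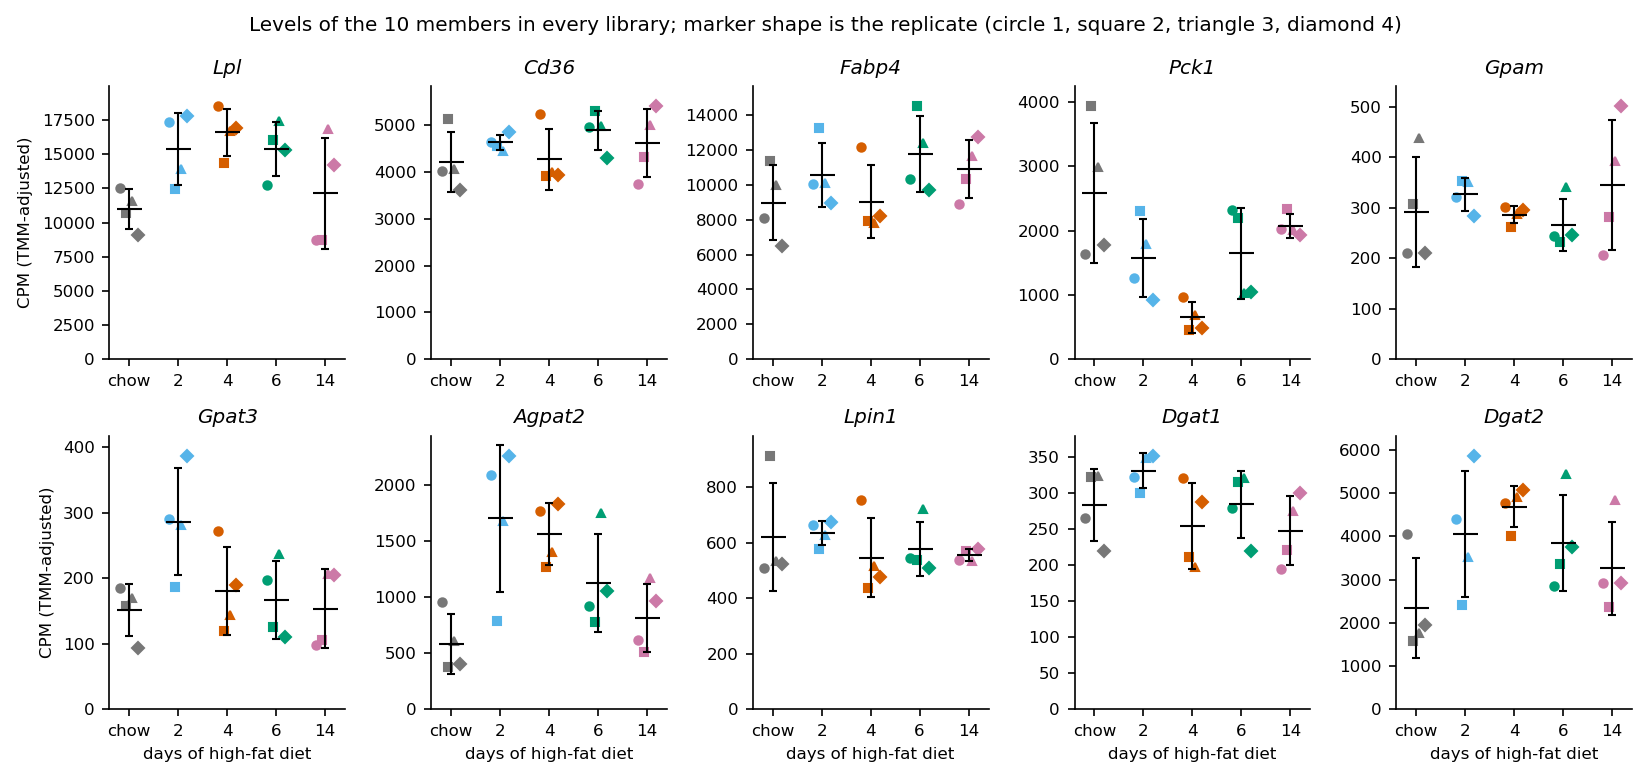
Level of each of the 10 genes in every library (y axis, CPM, linear from 0), with the groups along the x axis in time order from chow day 0 to high-fat day 14. Each marker is a library, its shape gives the replicate number, and the black bar is the mean ± SD of 4 libraries; all 4 day 4 libraries of Pck1 lie at or below 970.1 CPM, under every chow library.

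Lpl, the lipase that frees fatty acids for uptake, had 18510, 14350, 16710 and 16890 CPM in day 4 libraries, against 12530, 10710, 11570 and 9077 CPM in chow libraries. Every day 4 library was above every chow library, with a log2 change of 0.60 ± 0.21 (SE; adjusted p = 0.0317 by edgeR's quasi-likelihood test). The Lpl call was narrow. It was kept under the other settings tried with all libraries, but was lost without chow replicate 2 (adjusted p = 0.0703), 3 (0.0519) or 4 (0.0952), without day 4 replicate 1 (0.0622), 3 (0.0608) or 4 (0.0764), and without both doubted libraries (0.111).
On day 6 Lpl had 12770, 16020, 17440 and 15340 CPM, again all above chow, but the log2 change of 0.49 did not pass (adjusted p = 0.157, edgeR). On day 2 it had 17330, 12480, 13900 and 17820 CPM, with the lowest library just under the highest chow library. On day 14 it was split, with 8725 and 8748 CPM in replicates 1 and 2 and 16850 and 14220 CPM in replicates 3 and 4, and the log2 change was 0.15 (95% interval -0.29 to 0.58).

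Cd36, the fatty acid translocase, and Fabp4, the abundant fatty acid binding protein, passed in no comparison. Cd36 spanned 3919 to 5243 CPM on day 4, against 3613 to 5128 CPM in chow, and its log2 change was 0.02 (95% interval -0.28 to 0.33). Fabp4 spanned 7804 to 12150 CPM on day 4, against 6463 to 11390 CPM in chow, with a log2 change of 0.01 (-0.42 to 0.44). The sign of both day 4 differences turned with the scaling of the libraries. Their highest means were on day 6, at 4886 ± 415 CPM for Cd36 and 11740 ± 2174 CPM for Fabp4, against 4209 ± 646 and 8981 ± 2152 CPM in chow (SD, n = 4 each), with log2 changes of 0.22 and 0.39 that did not pass (edgeR adjusted p = 0.371 and 0.254).

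The ratio of Cd36 to Lpl counts within a library does not depend on scaling. Its mean log2 value was -1.97 ± 0.14 on day 4, against -1.38 ± 0.25 in chow (SD, n = 4 each), and every day 4 library was below every chow library. The exact two-sided permutation p of this difference of -0.58 was 0.0286, the smallest that 4 against 4 can give, and 0.274 after adjustment over the 12 ratio tests run (3 pairs of genes on 4 days).

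Pck1, the glyceroneogenic enzyme, fell on day 4. It had 970.1, 451, 683 and 494 CPM in day 4 libraries, against 1635, 3935, 2984 and 1783 CPM in chow libraries. The groups did not overlap, as was the case for 30.3% of all genes on that day, and the log2 change was -1.99 ± 0.36 (SE; edgeR adjusted p = 0.00125). This call held with each library left out in turn (highest adjusted p 0.00756) and without both doubted libraries (0.00535). Pck1 had 1265, 2303, 1798 and 918 CPM on day 2, where the log2 change from chow was -0.72 (adjusted p = 0.197, edgeR) and the libraries overlapped.
After day 4 the libraries stood higher again. On day 6 Pck1 had 2318, 2203, 1027 and 1039 CPM, all above the day 4 libraries (6.67% of all genes had no overlap between these days), with a log2 difference of 1.34 ± 0.35 between day 6 and day 4 that did not pass over all genes (edgeR adjusted p = 0.240). It passed without day 4 replicate 1 (adjusted p = 0.0302) or without day 6 replicate 4 (0.0380). On day 14 it had 2026, 2335, 2004 and 1925 CPM, inside the chow range and close together, with an SD of 180.4 CPM against 1084 CPM in chow.

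Day 4 minus day 2 in Pck1 was -1.27 ± 0.35 on the log2 scale and did not pass (edgeR adjusted p = 0.0559), while 2.40% of all genes did. It passed without day 2 replicate 4 (adjusted p = 0.0451) or day 4 replicate 1 (0.0119). In these neighbouring-day comparisons none of the 10 genes was called: 0 of 10 for day 4 against 2 (2 of 10 at an unadjusted p under 0.05, Dgat1 and Pck1, near the 22.3% of all genes), 0 of 10 for day 6 against 4 (1 of 10, Pck1) and 0 of 10 for day 14 against 6 (0 of 10). Over all genes, 0 were called by edgeR for day 6 against 4 and for day 14 against 6, with 2492 and 508 at an unadjusted p under 0.05. DESeq2 and limma-voom called 1 and 4 of the 10 for day 4 against 2, and 1 and 2 for day 6 against 4. Neither called any for day 14 against 6. For day 4 against 2 and day 6 against 4, both tools also called more of all genes than edgeR did, limma-voom the most. Those counts are given with the dependence on processing.

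The adipocyte markers also moved on day 4, and there day 4 replicate 1 stood apart from the other 3 libraries. Of 6 adipocyte markers, 3 fell (Adipoq, Cfd and Adrb3), and the sum over the 6 was 13760 CPM in replicate 1 and 5871 to 6549 CPM in the other day 4 libraries, against 12870 to 26510 CPM in chow. The other 3 did not pass: Plin1, which coats the lipid droplet, had a log2 change of 0.02, Lipe -0.19 and Pparg 0.19. Cfd was the largest part of the adipocyte sum in chow, with a mean of 10920 CPM there and 2279 CPM on day 4. The sum therefore follows Cfd more than the other markers. Of the 6 endothelial markers 4 rose, with a sum of 928 CPM in replicate 1 and 1484 to 1770 CPM in the others, against 744.9 to 1021 CPM in chow. For these 2 lists replicate 1 lay inside the chow range. All 3 markers of dividing cells rose. Their sum was 37.39 CPM in replicate 1 and 305.4 to 387.7 CPM in the others, against 8.137 to 27.05 CPM in chow. Day 6 replicate 4 stood apart from its group in the same 3 lists. In the adipocyte list it had 7086 CPM, where the other day 6 libraries had 13710 to 20080 CPM. It had 1620 CPM of endothelial markers (others 795.3 to 933.8 CPM) and 219.5 CPM of dividing cell markers (others 26.71 to 59.63 CPM). Pck1 passed for day 6 against day 4 when day 4 replicate 1 or day 6 replicate 4 was left out. A link was not tested.
All 5 mesothelial markers fell on day 4 (60.1 to 174.9 against 279.3 to 367.1 CPM in chow), as did 2 of 5 progenitor markers (315.8 to 499.8 against 440.8 to 482.3 CPM), and of the 6 macrophage markers none passed (554.2 to 1045 against 964.6 to 1172 CPM). On day 2, beside the Agpat2 call, 4 of 5 mesothelial markers fell (80.66 to 133.6 against 279.3 to 367.1 CPM in chow) and 1 of 5 progenitor markers fell (291.8 to 395.2 against 440.8 to 482.3 CPM). None of the adipocyte, endothelial, macrophage or dividing cell markers was called on day 2. Lpl and Pck1 are expressed in adipocytes, and Cd36 and Fabp4 in both adipocytes and capillary endothelium. The part of the marker shifts in the day 2 and day 4 results was not tested. Ucp1, the marker of brown fat, reached at most 2.572 CPM in any library.

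The first acylation step showed no called change. Gpam spanned 262 to 301 CPM on day 4, against 210.3 to 439 CPM in chow, and its log2 changes from chow lay between -0.13 (day 6) and 0.24 (day 14). Gpat3 had 290.3, 187, 282 and 387 CPM on day 2, against 185, 158, 169 and 93.7 CPM in chow. All 4 day 2 libraries were above all chow libraries, a separation found in 12.7% of all genes. The log2 change of 0.92 ± 0.32 did not pass (edgeR adjusted p = 0.0943; 0.0462 without day 2 replicate 2). On day 4 Gpat3 had 272, 119, 144 and 189 CPM, and on days 6 and 14 it spanned 110.8 to 237 and 98.6 to 206 CPM, all overlapping chow. The log2 ratio of Gpat3 to Gpam counts was -0.23 ± 0.56 on day 2, against -0.92 ± 0.52 in chow (SD, n = 4 each; exact two-sided permutation p = 0.114). An opposite-strand gene, 4930458D05Rik, overlaps Gpat3 and held 2701 counts in all libraries together, against 59296 for Gpat3. Gm42987 overlaps Gpat3 by 2350 bases on the same strand, and AC110206.1 overlaps Gpam by 18314 bases on the opposite strand. Neither was among the gene IDs counted.

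Agpat2, the main enzyme of the next acylation in adipocytes, was the only gene of the 10 called on both day 2 and day 4, comparisons that share the chow libraries. It had 2089, 790.4, 1684 and 2260 CPM on day 2 and 1771, 1266, 1399 and 1831 CPM on day 4, against 953, 375, 608 and 399 CPM in chow. All day 4 libraries were above all chow libraries, whereas day 2 replicate 2 lay under chow replicate 1. The log2 change on day 4 was 1.42 ± 0.36 (SE; edgeR adjusted p = 0.00630). That call held with each library left out in turn (highest adjusted p 0.0246) and without both doubted libraries (0.0285).
On day 2 the log2 change in Agpat2 was 1.55 ± 0.36 (edgeR adjusted p = 0.0253). It was lost without chow replicate 2 (adjusted p = 0.0797) or 4 (0.0899), without day 2 replicate 1 (0.0797) or 4 (0.104), and without both doubted libraries (0.207), which left none of the 10 called on day 2.
On day 6 Agpat2 had 919, 777, 1755 and 1056 CPM and on day 14 it had 614, 509, 1171 and 962 CPM. The log2 changes from chow were 0.95 and 0.48, and neither passed (edgeR adjusted p = 0.117 and 0.509; the first was 0.0406 without chow replicate 1). On the opposite strand Egfl7, one of the endothelial markers that rose on day 4, overlaps the end of Agpat2 by 64 bases. It held 34372 counts over all libraries, against 344484 for Agpat2, and no strand setting is given in the sources used here. Gm20532, also on the opposite strand, overlaps Agpat2 by 11361 bases and held 0 counts.

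**Figure D2:**
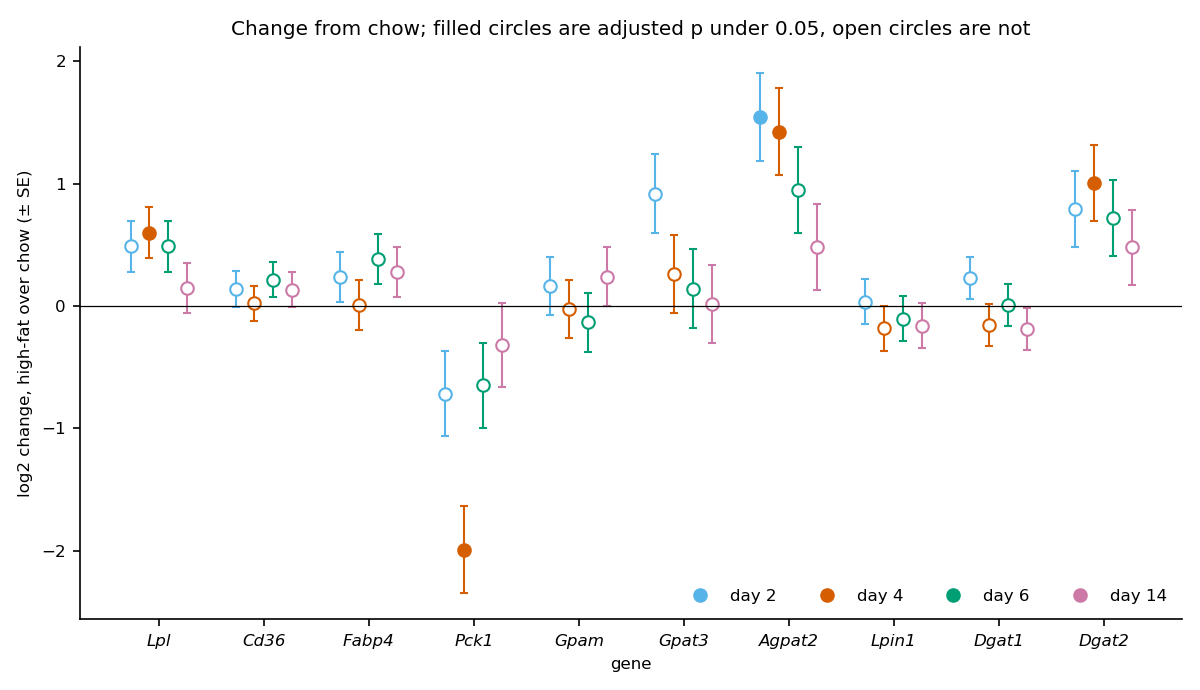
Log2 change of each of the 10 genes on each high-fat day against chow, with its standard error from the edgeR fit of all 20 libraries; filled markers passed the test at an adjusted p under 0.05. Filled markers are Agpat2 on day 2 and Agpat2, Dgat2, Lpl and Pck1 on day 4, and Pck1 on day 4 is the lowest value at -1.99.

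Lpin1, the phosphatidate phosphatase, and Dgat1, the acyltransferase of the last step in the endoplasmic reticulum, passed in no comparison by edgeR. Lpin1 spanned 434.8 to 755 CPM on day 4, against 509 to 912 CPM in chow, with a log2 change of -0.18 (95% interval -0.57 to 0.20). Dgat1 spanned 197 to 320.2 CPM on day 4, against 219.7 to 322 CPM in chow, with a log2 change of -0.15 (-0.51 to 0.21). Voom with sample weights (limma) called both lower on day 4, at adjusted p = 0.0370 and 0.0422.

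Dgat2, the other enzyme of the last step, rose on day 4. It had 4774, 4003, 4923 and 5079 CPM in day 4 libraries, against 4054, 1588, 1768 and 1945 CPM in chow libraries. Chow replicate 1 stood far above the other 3 chow libraries and above 1 of the day 4 libraries. The log2 change was 1.01 ± 0.31 (SE; edgeR adjusted p = 0.0185). It lost its call without chow replicate 2 (adjusted p = 0.0628), 3 (0.0566) or 4 (0.0541), day 4 replicate 4 (0.0536) or the pair of doubted libraries (0.0658). It was 1.40 with chow replicate 1 left out.
Dgat2 had 4400, 2402, 3531 and 5864 CPM on day 2, 2864, 3363, 5438 and 3747 CPM on day 6, and 2919, 2363, 4841 and 2918 CPM on day 14. The log2 changes from chow were 0.79, 0.72 and 0.48 and did not pass (edgeR adjusted p = 0.120, 0.161 and 0.442). Without chow replicate 1 the day 2 change was 1.21 (adjusted p = 0.0192) and the day 6 change was 1.13 (0.0290), and without day 2 replicate 2 the day 2 change was 0.98 (0.0483).

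The log2 ratio of Dgat2 to Dgat1 counts in the same library was 4.23 ± 0.31 on day 4, against 2.96 ± 0.75 in chow (SD, n = 4 each), and 3 of 4 day 4 libraries were above every chow library. The exact two-sided permutation p was 0.0571, and 0.274 adjusted over the 12 ratio tests. On days 2, 6 and 14 the difference from chow was 0.59, 0.78 and 0.73. None of the 12 ratio tests passed after adjustment.

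**Figure D3:**
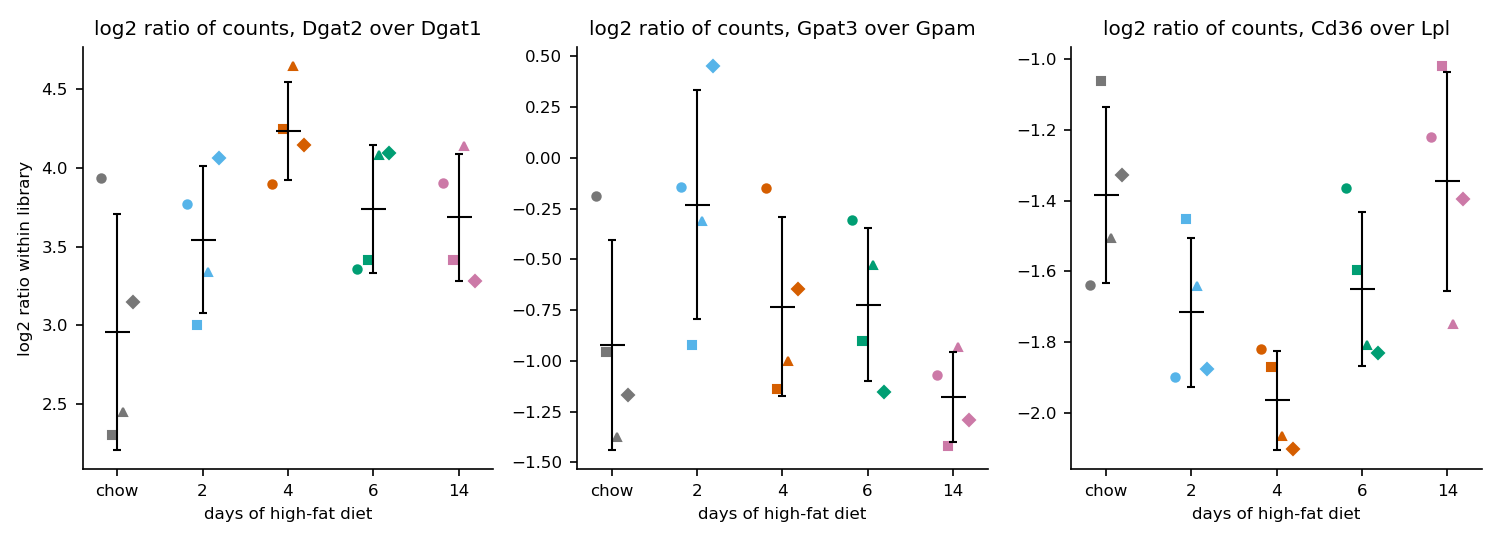
Log2 ratio of the counts of 2 genes in the same library (y axis), for Dgat2 over Dgat1, Gpat3 over Gpam and Cd36 over Lpl, by group in time order from chow day 0. Each marker is a library, its shape gives the replicate number and the black bar is the mean ± SD of 4 libraries; the day 4 libraries of Cd36 over Lpl lie below all chow libraries, with means of -1.97 and -1.38.

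Across the 10 genes the median log2 change from chow was 0.23 (day 2), 0.01 (day 4), 0.18 (day 6) and 0.14 (day 14), beside medians over all genes of -0.03, -0.02, -0.01 and -0.01. Values were positive for 9, 6, 7 and 7 of the 10 genes. Groups did not overlap for 1 of 10 on day 2 (12.7% of all genes), 3 on day 4 (30.3%), 1 on day 6 (11.9%) and 0 on day 14 (9.93%). On day 6, 0 of 10 were called by edgeR, with 3 at an unadjusted p under 0.05 (Lpl, Agpat2 and Dgat2), near the 24.4% of all genes under that value. On day 14, 0 of 10 were called, with 0 at an unadjusted p under 0.05, beside 18% of all genes under that value. DESeq2 and limma-voom also called 0 of 10 on both days. All 4 comparisons share the chow libraries.

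Every pair of the 10 genes was compared within groups, and some pairs shared their highest and lowest libraries. The library with the highest Agpat2 was also the one with the highest Dgat2 in 5 of 5 groups, and the lowest was shared in 4 of 5; the same counts held for Lpl and Gpat3. Cd36 and Fabp4 shared the highest library in 4 of 5 groups, as did several other pairs. Fabp4 shared its highest library with Agpat2 in 0 of 5 groups, and with Dgat2 in 0 of 5, and the same held for Pck1. Day 4 replicate 1 was highest of its group for 8 of 10 genes and replicate 2 lowest for 8. Day 2 replicate 4 and day 6 replicate 3 were each highest for 7. Chow replicate 4, day 2 replicate 2 and day 14 replicate 1 were each lowest for 6. Genes measured in the same library share its depth and tissue makeup, so these counts are descriptions.

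**Figure D4:**
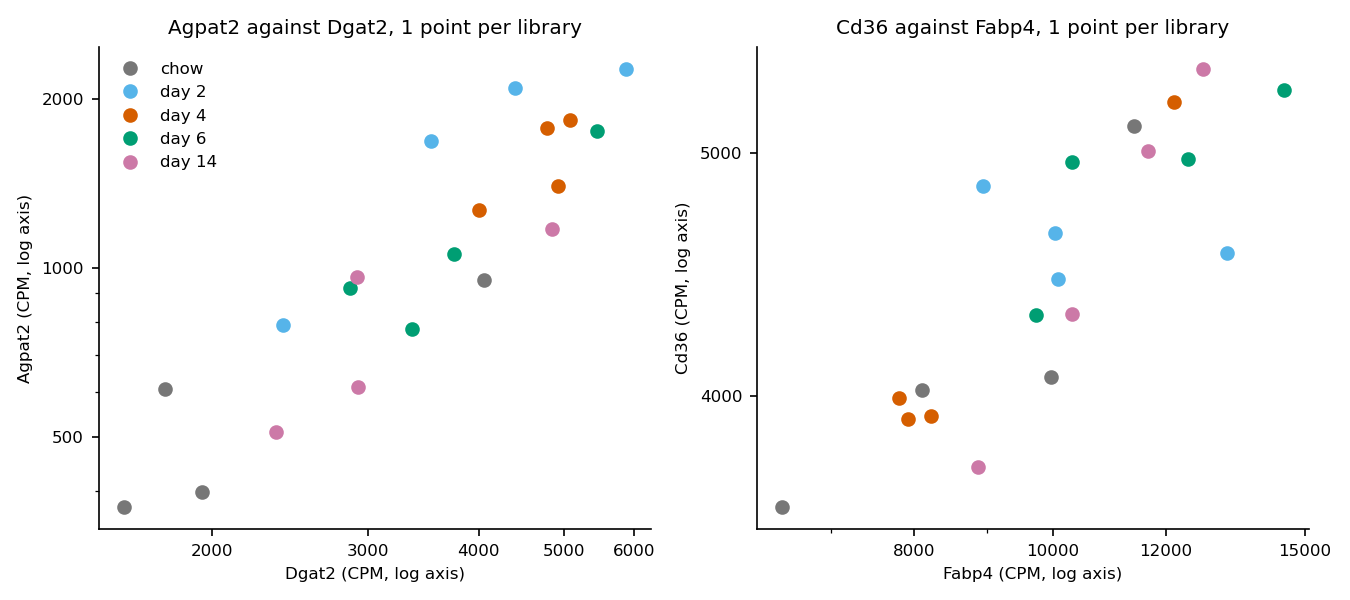
Level of 1 gene against another in each of the 20 libraries, both in CPM on log axes, for Agpat2 against Dgat2 and for Cd36 against Fabp4. Each circle is a library and its colour gives the group. Replicate numbers are not marked. In every group the library highest in Agpat2 is also highest in Dgat2, as with day 2 replicate 4 at 2260 and 5864 CPM.

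Beside these genes stood others of uptake and activation. These were 17 genes that act with or on LPL or carry and activate fatty acids. Of the 17, 7 rose and 2 fell on day 4, and 2 rose and 1 fell on day 2. On day 6, 3 rose, and on day 14 none was called. Their roles differ, so the counts give no direction of uptake. Over all genes 35.3% were called on day 4, 4.39% on day 2 and 3.45% on day 6. The median log2 change of the 17 on day 4 was 0.37, beside -0.02 over all genes. The largest was that of Angptl8, at 2.86 (edgeR adjusted p = 0.0158). Without both doubted libraries 6 of the 17 were called on day 4, and 0 on days 2 and 6. With 1 library left out the day 2 count ran from 0 (chow replicate 2 or 4, day 2 replicate 1 or 4) through 1 (chow or day 2 replicate 3) to 6 (chow replicate 1 or day 2 replicate 2). The day 6 count ran from 0 (chow replicate 4, day 6 replicate 2, 3 or 4) through 1 (chow replicate 2 or 3) to 4 (chow or day 6 replicate 1). The 2 that fell on day 4 were Slc27a1 and Got2, and Got2 was also the gene that fell on day 2. Slc27a1 averaged 174.9 ± 61.2 CPM on day 4, against 391.1 ± 121 CPM in chow (SD, n = 4 each). Its log2 change was -1.16 (edgeR adjusted p = 0.0106), and that of Got2 on day 4 was -0.54 (0.0132). Named by the smallest p in the test of any difference were Vldlr, Fabp5, Acsl3 and Slc27a4, all higher on day 4. Vldlr, a receptor that binds triglyceride-rich lipoproteins, averaged 201 ± 21.03 CPM on day 4, against 96.8 ± 10.2 CPM in chow, a log2 change of 1.05 (edgeR adjusted p = 0.000655). Fabp5, a relative of Fabp4, averaged 479.5 ± 143 CPM on day 4, against 116 ± 33.0 CPM in chow, 2.04 on the log2 scale (0.000977). Acsl3, an acyl-CoA synthetase, averaged 32.3 ± 3.87 CPM, against 13.2 ± 1.77 CPM (1.29; 0.00130), and Slc27a4, a fatty acid transport protein, 94.1 ± 10.3 CPM, against 48.5 ± 9.34 CPM (0.96; 0.00140; SD, n = 4 each). All 4 genes were higher in 4 of 4 day 4 libraries than in any chow library. Groups did not overlap for 30.3% of all genes on day 4. Since these 4 were picked by p from the same libraries, their separation adds no support of its own. Their day 4 calls held with each library left out.

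Around the step Pck1 belongs to, 9 further genes that make, use, move or regulate glycerol and glycerol 3-phosphate were listed, of which 8 were tested. Their roles differ, so a count gives no direction of supply. None rose and 3 fell on day 4 (Aqp7, Gpd2 and Pdk4, the last by -0.91 on the log2 scale), and none was called on days 2, 6 and 14. The 3 of 8 called stood near the 35.3% of all genes called on day 4. The count of 3 was 1 without chow replicate 3 and 0 without chow replicate 2 or day 4 replicate 2, 3 or 4. Aqp7, the glycerol channel of adipocytes, averaged 117 ± 14.1 CPM on day 4, against 151 ± 25.5 CPM in chow, a log2 change of -0.37 (edgeR adjusted p = 0.0217; 0.0531 to 0.0808 without chow replicate 2 or 3 or day 4 replicate 2, 3 or 4). Gpd2, the mitochondrial glycerol 3-phosphate dehydrogenase, had a log2 change of -0.66 (0.0448) that was lost without both doubted libraries (0.0555) and without chow replicate 1, 2 or 3 or day 4 replicate 2, 3 or 4 (0.0712 to 0.143). Gpd1, the cytosolic enzyme that makes glycerol 3-phosphate from a product of glycolysis, had 1765 ± 284 CPM on day 4, against 1092 ± 449 CPM in chow, and did not pass (0.69; 0.0805; 0.0148 without chow replicate 1). Mdh1, the cytosolic malate dehydrogenase, did not pass either (0.28; 0.163).

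Other isoenzymes of the synthesis steps numbered 14, of which 13 were tested. Of these, 3 rose on day 4 (Agpat1, Agpat5 and Mogat2; Agpat5 by 0.39 on the log2 scale) and Gpat4 fell, and none was called on days 2, 6 and 14. The 4 of 13 called stood near the 35.3% of all genes called on day 4. The day 4 count of 4 was 2 without chow replicate 4, without day 4 replicate 3 or 4 or without both doubted libraries, and 7 without day 4 replicate 1. Mogat2, a monoacylglycerol acyltransferase, averaged 27.7 ± 9.74 CPM on day 4, against 5.19 ± 2.87 CPM in chow (SD, n = 4 each), a log2 change of 2.39 (edgeR adjusted p = 0.00723). Agpat1, which catalyses the same step as Agpat2, changed by 0.36 (0.0120), and this was lost without chow replicate 4 (0.0527) and without both doubted libraries (0.0655). Gpat4, the further enzyme of the first step in the endoplasmic reticulum, changed by -0.53 (0.0155; 0.0502 to 0.0563 without chow replicate 2 or day 4 replicate 2, 3 or 4). Plpp3, a lipid phosphate phosphatase, did not pass (0.17; 0.310).

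Of 9 genes of lipid droplet assembly, 8 were tested. Bscl2 and Plin4 rose on day 2, Bscl2 and Plin2 rose and Tmem159 fell on day 4, none was called on day 6, and Plin4 rose on day 14. The 3 of 8 called on day 4 stood near the 35.3% of all genes, and the share of all genes was 4.39% on day 2 and 1.18% on day 14. Plin2, a droplet coat protein, averaged 545 ± 48.2 CPM on day 4, against 310.4 ± 90.4 CPM in chow, a log2 change of 0.81 (edgeR adjusted p = 0.00983). Tmem159, a droplet assembly factor, averaged 19.9 ± 4.66 CPM on day 4, against 39.8 ± 6.44 CPM in chow, -0.98 on the log2 scale (0.00398). Bscl2, the seipin gene of droplet formation, changed by 0.52 on day 4 (0.0183), and Plin4, a droplet coat protein of adipocytes, by 0.68 on day 14 (0.0248). Without both doubted libraries, the calls of Bscl2 on day 4 (0.0766) and Plin4 on day 14 (0.137) were lost, as were both calls of day 2. On day 2 Bscl2 was also lost without chow replicate 2 or 4 or day 2 replicate 1, 3 or 4 (0.0799 to 0.133), and Plin4 without those libraries or chow replicate 3 (0.0532 to 0.129). The day 4 call of Bscl2 was also lost without chow replicate 2 (0.0503) or 4 (0.0665) or day 4 replicate 4 (0.0635), and that of Plin4 on day 14 without chow replicate 4 (0.103) or day 14 replicate 2 (0.0678), 3 (0.0571) or 4 (0.0544).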

How the data were processed

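Per the submitters' processing notes, CASAVA, STAR, featureCounts, limma and R 3.0 were used by the authors, with no roles given. The genome build, annotation and strand setting are not given in the sources used here. The authors deposited raw counts per gene, as whole numbers with 1 column per library. A symbol was found for 37607 of the 39179 Ensembl IDs, and the other IDs held 0.139% of counts.

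From these counts, edgeR 4.0.16 in R 4.3.3 was used with filterByExpr (minimum count 10, minimum total 15), TMM scaling and a quasi-likelihood F test with robust dispersion. All 10 genes passed the filter, in which 15254 genes remained, 141 without a symbol. The 20 libraries were fitted together by group alone (15 residual degrees of freedom, common biological coefficient of variation 0.209). Within each comparison, Benjamini-Hochberg adjustment ran over all tested genes, and calls were made at 0.05. CPM are counts scaled to TMM-adjusted totals. Transcript lengths and gene overlaps came from GENCODE gene models, promoter windows from RefSeq (GRCm38.p6). The steps were also run on counts simulated with the same dispersion for every gene and no library set apart. Those counts cannot show how the results depend on individual libraries.

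The 10 genes, the companion lists and the markers were chosen with earlier results of these data known. Named companions were the 4 of each list with the smallest p in the test of any difference. Alternatives were RLE size factors, library size only, no filter, a stricter filter (mean of 2 CPM, and 1 CPM or more in 4 libraries), DESeq2 1.42.0, limma-voom (limma 3.58.1) with sample weights, a replicate block, the compared groups alone, each library left out and, added after seeing the data, both doubted libraries left out and every alternative for the companion genes. Intervals are 95% intervals of the fit.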

Additional observations from a re-analysis of the deposited data

Results flagged for a closer look

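In groups of 4 libraries, 1 library stood apart from the other 3 in 6 of the 65 groups examined, where chance gives about 1 in 20. On day 4, replicate 1 had 5243 CPM of Cd36, where the other libraries had 3919 to 3994 CPM. The same library had 12150 CPM of Fabp4, where the others had 7804 to 8222 CPM. On day 6, replicate 3 had 341.9 CPM of Gpam (others 233 to 246 CPM) and 719.6 CPM of Lpin1 (others 509 to 543 CPM). In chow, replicate 2 had 912 CPM of Lpin1 (others 509 to 535 CPM), and replicate 1 had 4054 CPM of Dgat2 (others 1588 to 1945 CPM). No explanation was tested.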

How the results depend on the processing

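Of the calls among the 10 genes, Pck1 and Agpat2 on day 4 held under each alternative tried. Settings with smaller shifts of a count are not listed, here or over all genes below. The number of the 10 called on day 2 (1) was 0 with no filter, 0 with only the groups compared and 0 without both doubted libraries, and 2 by DESeq2 and 2 by limma-voom. On day 4 (4) it was 2 without both doubted libraries, and limma-voom also called Lpin1 and Dgat1 lower. For day 4 against 2 (0) the number called was 1 by DESeq2, 4 by limma-voom and 1 with the replicate number as a block. For day 6 against 4 (0) it was 1 by DESeq2 and 2 by limma-voom, and for any difference (2) it was 4 by DESeq2, 6 by limma-voom and 1 without both doubted libraries. With 1 library left out, the number of the 10 called ran from 0 to 3 on day 2, 2 to 4 on day 4, 0 to 2 on day 6, 0 to 0 on day 14, 0 to 1 for day 4 against 2, 0 to 1 for day 6 against 4, 0 to 0 for day 14 against 6 and 0 to 3 for any difference.

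Over all genes, the count called on day 2 (670) was 317 with no filter, 1412 by DESeq2, 1244 by limma-voom, 177 with only the groups compared and 7 without both doubted libraries. On day 6 (527) it was 907 by library size, 130 with no filter, 1180 by DESeq2, 1045 by limma-voom, 0 with only the groups compared and 3 without both doubted libraries. On day 14 (180) the counts were 96 with no filter, 659 by DESeq2, 565 by limma-voom, 79 with only the groups compared and 37 without both doubted libraries. For day 4 against 2 (366) they were 0 by library size, 0 with no filter, 912 by DESeq2, 3394 by limma-voom, 551 with the replicate block, 0 with only the groups compared and 0 without both doubted libraries. For day 6 against 4 (0) they were 53 by DESeq2 and 2046 by limma-voom, and for any difference (2994) 6386 by limma-voom and 755 without both doubted libraries. With 1 library left out they ran from 43 to 1758 on day 2, 3213 to 5721 on day 4, 7 to 1343 on day 6, 45 to 482 on day 14, 0 to 2240 for day 4 against 2, 0 to 737 for day 6 against 4, 0 to 0 for day 14 against 6 and 976 to 4042 for any difference. The causes were not tested.

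The replicate numbers were not taken to pair the libraries, since same-numbered libraries of different groups correlated at -0.185 to 0.516 (median 0.0376, 40 pairs), others at -0.692 to 0.376 (median -0.0103, 120 pairs), and not every same-numbered pair was above 0.1; the labels name no shared litter, batch or day. As a hint from the data, not the design, 10 of 20 libraries correlated best with their own number, and libraries with the same replicate number also have neighbouring numbers in their names. With the replicate block Pck1 was called for day 4 against 2, at -1.21.

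Changes of sign were seen only in log2 changes and ratios that had not passed, and none passed with the other sign. On day 4 Fabp4 was -0.004 with RLE factors, -0.095 by library size, -0.023 with the stricter filter, -0.004 by DESeq2, -0.235 by limma-voom, -0.012 with only the groups compared and -0.125 without both doubted libraries. Cd36 on day 4 was -0.087 by library size, -0.011 with the stricter filter, -0.133 by limma-voom and -0.05 without both doubted libraries. Gpam on day 4 was 0.024 with the replicate block, and Gpat3 on day 4 was -0.076 by limma-voom. Lpin1 on day 2 was -0.069 by library size, -0.02 by limma-voom and -0.034 without both doubted libraries. Dgat1 on day 6 was -0.003 with RLE factors, -0.122 by library size, -0.018 with the stricter filter, -0.003 by DESeq2, 0.0 with only the groups compared and -0.093 without both doubted libraries. Gpat3 was -0.027 on day 6 without both doubted libraries. On day 14 it was -0.084 by library size, -0.008 with the stricter filter, -0.282 by limma-voom, -0.012 with the replicate block and -0.154 without both doubted libraries. It was 0.203 for day 6 against 4 by limma-voom. Lpl on day 14 was -0.045 by limma-voom.

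With 1 library left out, the changes that crossed 0 ran from -0.040 to 0.293 (Lpin1 day 2), -0.092 to 0.123 (Cd36 day 4), -0.169 to 0.137 (Fabp4 day 4), -0.166 to 0.242 (Gpam day 4), -0.001 to 0.421 (Gpat3 day 4) and -0.378 to 0.059 (Lpin1 day 4). On day 6 they ran from -0.275 to 0.134 (Gpam), -0.07 to 0.297 (Gpat3), -0.224 to 0.146 (Lpin1) and -0.106 to 0.113 (Dgat1), and on day 14 from -0.053 to 0.28 (Lpl), -0.166 to 0.184 (Gpat3) and -0.243 to 0.087 (Lpin1). Between high-fat days they ran from -0.359 to 0.035 (Agpat2, day 4 against 2), -0.334 to 0.144 (Gpat3) and -0.044 to 0.277 (Lpin1, both day 6 against 4), and for day 14 against 6 from -0.166 to 0.009 (Cd36), -0.192 to 0.01 (Fabp4), -0.304 to 0.086 (Gpat3) and -0.115 to 0.064 (Lpin1). The ratio of Gpat3 to Gpam ran from -0.006 to 0.433 on day 4, and that of Cd36 to Lpl from -0.071 to 0.172 on day 14.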
